A study of Mus musculus with 2 samples.

Results

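The microRNA (miRNA) genes of the mouse were set against Sap130 binding in the embryonic heart. All 1228 genes of the type miRNA on nuclear chromosomes of build GRCm38 were taken from RefSeq, out of 49603 nuclear genes of all types. Of these, 825 lay whole inside a protein-coding gene, 121 lay inside a long non-coding RNA (lncRNA) gene and in no protein-coding gene, and 282 lay in neither. A miRNA gene was called marked when a summit, a single base taken as the highest point of a Sap130 peak, lay within 1000 bp of it. The table of genes holds no exons, so intron, exon and untranslated region could not be told apart.

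Binding was measured by chromatin immunoprecipitation and sequencing (ChIP-seq) in hearts of C57BL/6 embryos at E12.5. One library was precipitated with rabbit anti-Sap130 antibody (2 µg), and 1 input library from the same stage, tissue and strain had no antibody. No genetic change or treatment is named for either group, and the number of pooled hearts is not given in the sources used here. There was no second ChIP library and hence no replicate error, the read depth is unknown, and all intervals below are Wilson 95% intervals that cover counting error only.

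miRNAs are short RNAs that repress messenger RNAs. RNA polymerase II makes a long primary transcript, Drosha with Dgcr8 cuts a hairpin out of it, Xpo5 exports the hairpin, Dicer1 trims it, and an Argonaute protein carries the mature strand to its targets. The seed, bases 2 to 8 of the mature strand, does most of the pairing, so miRNAs that share a seed share many predicted targets. A miRNA gene in an annotation is only the hairpin: its promoter is that of the primary transcript, often the promoter of a host gene, and can lie far away. The Sin3 complex, of which Sap130 is one of the subunits, is a corepressor with histone deacetylases that acts at promoters.

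The mature strands below belong to miRNA genes on which the results turn, and the capitals mark the seed. They were taken from RefSeq for build GRCm38.p6 and are written 5′ to 3′. The miR-9 strand is made by 3 marked genes and the miR-219a strand by 2. The miR-132 and miR-212 strands, the miR-193a and miR-193b strands, and the miR-34b and miR-34c strands share a seed within each pair, with both genes marked. In the set of miR-148a, miR-152 and miR-148b the first pair come from marked genes and the last does not. The let-7i and miR-210 strands come from marked genes with a summit very near, and miR-17 from a gene just out of reach of a summit with a high score.
mmu-miR-9-5p: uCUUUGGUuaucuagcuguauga
mmu-miR-219a-5p: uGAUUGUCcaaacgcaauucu
mmu-miR-132-3p: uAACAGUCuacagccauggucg
mmu-miR-212-3p: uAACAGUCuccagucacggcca
mmu-miR-193a-3p: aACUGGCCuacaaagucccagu
mmu-miR-193b-3p: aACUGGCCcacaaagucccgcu
mmu-miR-34b-3p: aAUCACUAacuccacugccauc
mmu-miR-34c-3p: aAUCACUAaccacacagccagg
mmu-miR-148a-3p: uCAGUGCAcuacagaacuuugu
mmu-miR-152-3p: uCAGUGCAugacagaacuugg
mmu-miR-148b-3p: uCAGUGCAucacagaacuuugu
mmu-let-7i-5p: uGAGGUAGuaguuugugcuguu
mmu-miR-210-3p: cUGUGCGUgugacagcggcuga
mmu-miR-17-5p: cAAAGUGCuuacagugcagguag

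A Sap130 summit lay within 1000 bp of 131 of the 1228 miRNA genes (10.7%, interval 9.06 to 12.52). The same call was made for 28.9% of all nuclear genes, 54.97% of protein-coding genes and 14.96% of lncRNA genes, all of which are mostly far longer and so give a summit more room. A miRNA gene is short, with a median length of 80 bp and at most 147 bp. Of the genes of other types that were no longer than 147 bp, 217 of 3264 (6.65%) had a summit within reach. That group takes in tRNA genes, of which 146 of 403 had a summit within reach at any length. Its share is thus not that of short genes in general, and it was not recomputed without tRNA genes. Among small RNA genes the share was 4.66% for snoRNA genes, 1.50% for snRNA genes and 36.2% for tRNA genes. The miRNA genes thus stood above the snoRNA and snRNA genes and below the tRNA genes, with intervals that did not overlap. Of all bases between the first and last gene of each chromosome, 0.985% lay within 1000 bp of a summit.

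**Figure D1:**
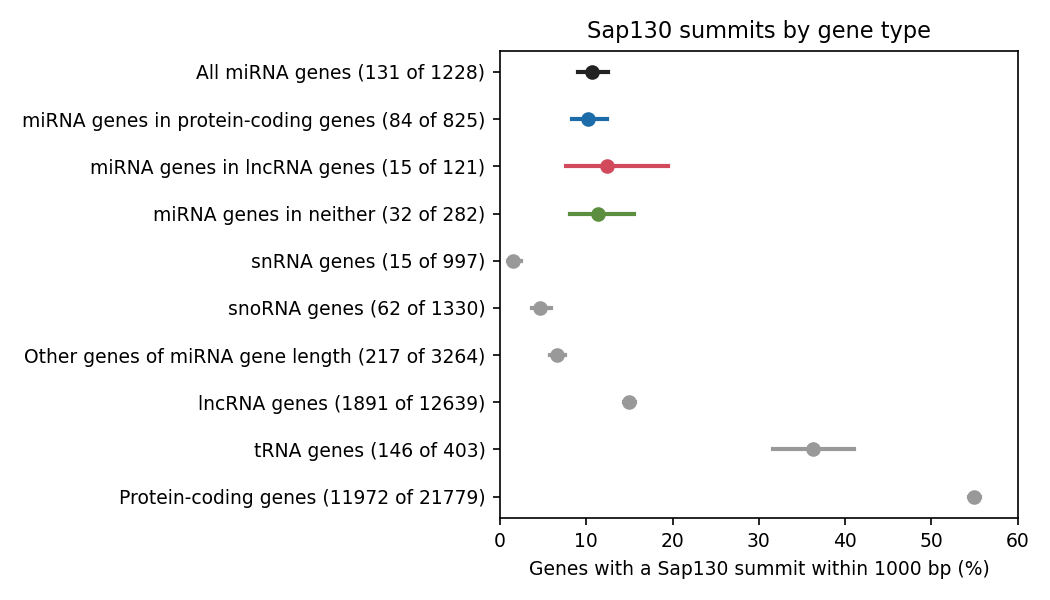
Share of genes (horizontal axis, percent) with a Sap130 summit within 1000 bp, for miRNA genes by host class (coloured) and for other gene types (grey); points are shares and bars are Wilson 95% intervals. The miRNA classes lie between 10.2% and 12.4% with overlapping bars, while protein-coding genes lie at 54.97%.

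The 3 classes of host gave shares with overlapping intervals. The share was 10.2% (84 of 825, interval 8.30 to 12.4) inside protein-coding genes, 12.4% (15 of 121, interval 7.66 to 19.4) inside lncRNA genes and 11.3% (32 of 282, interval 8.15 to 15.6) in neither. The bases around them differed more: 1.81% of bases in protein-coding genes, 0.762% of bases in lncRNA genes only and 0.428% of bases in neither lay within 1000 bp of a summit. The mean over the miRNA genes of the share of their own hosts' bases in reach was 6.20% for protein-coding hosts and 7.62% for lncRNA hosts. At those shares 51.1 and 9.22 miRNA genes would be marked, against the 84 and 15 counted. These counts take overlapping miRNA genes, such as genes on both strands of a hairpin, as separate genes. With overlapping genes counted once, 82 of 812 were marked in protein-coding genes (10.1%) and 12 of 114 in lncRNA genes (10.5%). In neither it was 30 of 272 (11.0%). The expected counts were not recomputed for this setting.

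The classes differed in the score of the summit. The score is −log10 of a significance value of the authors' peak caller, p or q, used here only to rank summits within the list. The 152 summits at miRNA genes had a median score of 25.3, against 33.3 for all 14881 nuclear summits. The nearest summit of the marked genes had a median of 28.9 in protein-coding genes (range 2.82 to 172), 7.85 in lncRNA genes (range 5.40 to 79.0) and 37.1 in neither (range 8.63 to 263). A nearest summit at or above the median of all summits was found for 39 of 84, 1 of 15 and 17 of 32 of them. By its nearest summit, Mir6516 was the one lncRNA-hosted gene above that median. Mir3569 also had a second summit within reach, of score 107. Some marked genes share a nearest summit, so the genes are not independent. With every summit in reach counted once per class, the medians were 25.4 in protein-coding genes (102 summits), 11.4 in lncRNA genes (17) and 30.9 in neither (34).

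**Figure D2:**
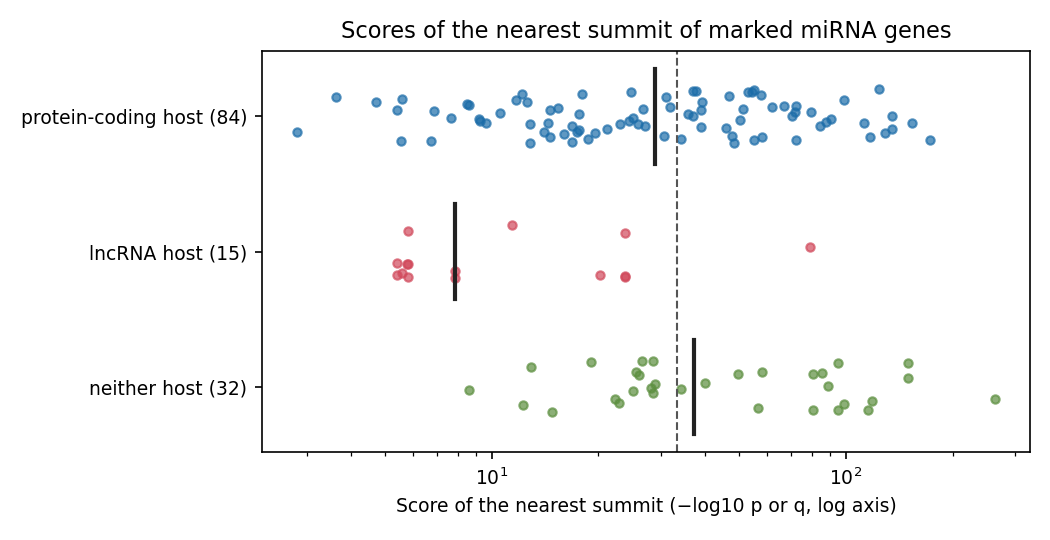
Score of the nearest summit (horizontal log axis, −log10 p or q) of each marked miRNA gene, 1 point per gene, by host class; the solid bar is the class median and the dashed line the median of all nuclear summits, 33.3. Of the 15 lncRNA-hosted genes, 14 lie left of the dashed line.

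Many marks were shared with a protein-coding gene. Of the 131 marked miRNA genes, 80 (61.1%, interval 52.5 to 69.0) had a nearest summit that was also within 1000 bp of the first or last base of a protein-coding gene. Of all nuclear summits, 73.5% lay that near to such a boundary. The share was 56 of 84 (66.7%) for genes in protein-coding hosts, 22 of 32 (68.8%) for genes in neither and 2 of 15 (13.3%, interval 3.74 to 37.9) for genes in lncRNA hosts. Summits at miRNA genes had a median score of 29.4 at such a boundary (97 summits) and 17.6 away from one (55 summits). In marks of this kind a signal at the miRNA gene and one at the neighbouring gene's boundary cannot be told apart.

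Among the marked genes in neither kind of host, the highest scores were next to protein-coding genes. Mir320 (chromosome 14, 70443510 to 70443591) had the highest score of any marked miRNA gene, 263, with a summit 239 bp away that lay 200 bp from a boundary of Polr3d, a subunit of RNA polymerase III. Mir320 is known for a hairpin that is made without Drosha. Mir2861 and Mir3960 shared a summit of score 150 that was 233 bp from a boundary of Cdk9, the kinase of the elongation factor P-TEFb. Mir5627 had a score of 116 beside Dnajb9, a chaperone of the endoplasmic reticulum, and Mir8114 a score of 98.6 beside Glul, glutamine synthetase. The overlapping genes Mir219a-1 and Mir219c shared a summit of 95.2 beside Ring1, a Polycomb ubiquitin ligase. Mir1945 (119) and Mir5625 (85.4) also had a summit at a protein-coding boundary, that of LOC115488671 and of Slc35f6. Mir8105 (57.7) was beside Smarcc2, a SWI/SNF remodelling subunit, and Mir8112 (56.6) beside Krcc1.

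In 10 of these 32 genes the nearest summit was over 1000 bp from every protein-coding boundary, and these include well-known miRNAs. Mirlet7i (chromosome 10, 122985640 to 122985724) had a summit of score 88.7 at a distance of 62 bp and another of 52.4, and the nearer lay 6482 bp from the closest protein-coding boundary, that of Mon2. The let-7 miRNAs rise as cells differentiate. Mir212 held a summit of score 80.7 within its hairpin, and the same summit was 230 bp upstream of Mir132; the pair is best known from neurons and from growth of heart muscle cells. That summit lay 2491 bp from the nearest protein-coding boundary, that of Ovca2. Mir760 held a summit of 49.7 within its hairpin, 8377 bp from Dnttip2. Mir193a had 34.2 at 520 bp, and Mir210, the miRNA of the hypoxia response, had 25.6 at 60 bp. Mir203, abundant in epidermis, had 28.6 at 307 bp, and Mir7b had 12.2 at 772 bp. Mir124a-3, one of the genes of the neuronal miR-124, had 40.1 at 287 bp.

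Inside protein-coding genes, most marks lay near the start of the host. Annotated starts of the host were known for 676 of the 825 genes. Of the 57 genes within 1000 bp of a start, 46 were marked (80.7%, interval 68.7 to 88.9). Beyond 1000 and up to 5000 bp 13 of 105 were marked (12.4%), beyond 5000 and up to 20000 bp 3 of 171 (1.75%) and beyond 20000 bp 4 of 343 (1.17%). The start itself had a summit within 1000 bp for 488 of the 676 genes (72.2%), and for 80.7%, 79.0%, 86.0% and 61.8% in the same 4 ranges. So 431 of the 676 miRNA genes (63.8%) sat in a host with a summit at a start but were themselves out of its reach. A host that holds several miRNA genes counts once for each in these shares. With each host counted once, 447 of 539 had a summit at a start (82.9%), and the 4 ranges were not recomputed that way.

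**Figure D3:**
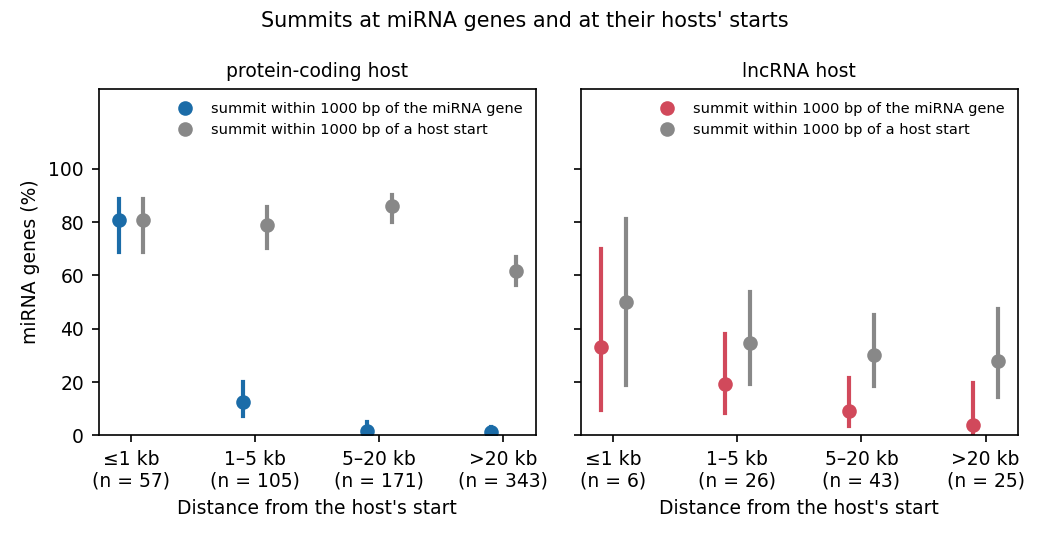
Share of miRNA genes (vertical axis, percent) with a summit within 1000 bp of the miRNA gene (coloured) and of a start of its host (grey), by distance from the host's start, for protein-coding and lncRNA hosts; bars are Wilson 95% intervals. In protein-coding hosts the coloured points fall from 80.7% to 1.17% while the grey ones stay at 61.8% or above. A host with several miRNA genes counts once for each.

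The protein-coding hosts of the highest-scoring marked genes have varied roles. Mir707 had 172, at the start of Akt1s1, a regulator of the kinase mTORC1, and Mir7238 had 154 at the start of Ankrd10. Mir7071, in Heatr3, and Mir1938, in Ifrd1, both had 135. Mir6935 had 129 in Actg1, cytoplasmic gamma actin, and Mir6936 had 124 in Sirt7, a nuclear deacylase. Mir207 had 117 in the chaperone gene Dnaja1, Mir3091 had 113 in Rps21 of the small ribosomal subunit, and Mir7045 had 98.6 in Chd4, the helicase of the NuRD deacetylase complex. In each of these 9 genes the nearest summit was 123 to 242 bp from a start of the host.

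By count, a larger share of the hosts of miRNA genes than of other genes had a summit at a start, and no test of this was made. Counting each host once, 447 of 539 protein-coding hosts with an annotated start had one (82.9%, interval 79.5 to 85.9). Among the other protein-coding genes with an annotated start it was 51.2%. For lncRNA hosts it was 21 of 59 (35.6%, interval 24.6 to 48.3), beside 12.9% of the other lncRNA genes. Hosts here are the nearest host of each miRNA gene. The others can hold a miRNA gene too, where another host was nearer or, for lncRNA genes, where a protein-coding gene also held it. Hosts were longer, with a median of 38110 bp against 16464 bp for the protein-coding genes. Among protein-coding genes under 10 kb the share was 73.1% of 78 hosts and 32.7% of 6334 others. From 10 to under 50 kb it was 85.8% of 233 hosts and 59.4% of 6980 others, and at 50 kb and over 83.3% of 228 hosts and 67.8% of 3639 others. The hosts stood above the others in all 3 length ranges, with intervals that did not overlap. A gene counts when any of its starts has a summit, and the number of starts per gene was not matched.

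The bases at these starts differed with the summit. The promoter window runs from 250 bases before the start to 50 after it. Of 760 starts of protein-coding hosts, the 547 with a summit within 1000 bp had a median GC content of 64.0% and the 213 without had 52.7%. The CpG ratio, the count of CG steps over that expected from the C and G content, was 0.801 and 0.292. GGGCGG, searched on both strands, stood in 72.6% and 27.7% of these windows. Over all 32851 starts of protein-coding and lncRNA genes it stood in 70.6% of those with a summit and 15.2% of those without, with a median GC content of 63.3% and 48.3%. Windows with a summit were thus richer in G, C and CG steps among host starts and among all starts alike. Of 79 host starts that had a summit and a marked miRNA gene, 64 had the summit downstream. Over all 79 starts, upstream summits counted as negative, the median offset was 200 bp downstream. Hosts with several starts can count the same summit more than once. These starts were chosen for a marked miRNA gene inside the host, often marked by that same summit. The choice itself favours downstream summits, and no value for other starts is given beside it.

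Inside lncRNA genes the marks were few, and several were of the same miRNAs. The 15 marked genes were Mir6516, Mir9-3, Gm51285, Mir3569, Mir193b, Mir3093, Mir9-1, Gm25641, Mir124a-1, Mir1a-1, Mir3078, Mir3069, Mir125b-1, Gm51268 and Mir9-2. Mir6516 had 79.0 at the start of Snhg20, a host of small nucleolar RNAs. Mir193b, of a family known in brown fat and muscle, had 20.2 at 918 bp, and Mir3569 had 23.7 at 6 bp, 306 bp from a boundary of Zbtb32, and the highest summit of the class, 107, also within reach. Mir3069, in Snhg10, had 5.78 at 621 bp, 856 bp from a boundary of Glrx5. Mir125b-1 had 3 summits within reach, of 15.4, 11.9 and 5.59, inside Mir100hg. Mir124a-1 also had 3, of 5.79, 5.59 and 5.13.

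All 3 genes of miR-9, a miRNA of neural progenitors, were marked. Mir9-3 (chromosome 7, 79505264 to 79505353) had summits of 23.7 and 18.6, the nearer 87 bp upstream. Mir9-1 (chromosome 3, 88215598 to 88215686) had summits of 11.4 and 7.85, and these 2 were the only summits of the whole list with 3 miRNA genes in reach, the others being Mir3093 and Gm25641. Mir9-2 (chromosome 13, 83738814 to 83738885) had 1 summit, of 5.40, at 162 bp. Each has a gene on the opposite strand of the same hairpin, Gm51285, Gm25641 and Gm51268, which are not separate loci. All 3 host lncRNAs had a summit 237 to 330 bp downstream of an annotated start. Its score was 10.5 in Mir9-3hg, 11.4 in Gm3764 and 14.0 in C130071C03Rik. In Gm3764 it is the same summit of 11.4 already given for Mir9-1. All of these scores were under the median of 33.3.

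The promoter windows at these 3 starts, and at that of Mir1a-1hg, the host of the only marked heart miRNA gene, are shown because each host carries a summit at its start and a second mark at the miRNA gene. They are from RefSeq, build GRCm38.p6, on the plus strand, with GGGCGG or its reverse complement CCGCCC in capitals. Of the 4, only the Mir9-3hg window holds a match, and none of the 4 holds CACGTG, which stood in 7.15% of all windows of this length. Other hosts also had a summit at a start and another near the miRNA gene, and their windows are not shown. Among lncRNA hosts these include Snhg10, with Mir3069, and Gm32817, with Mir193b, each with a window that holds GGGCGG or CCGCCC. GC content was 75% for Mir9-3hg, 59.7% for Gm3764, 53.3% for C130071C03Rik and 64.3% for Mir1a-1hg. The windows are chr7:79499776-79500075, chr3:88214232-88214531, chr13:83732243-83732542 and chr2:180385354-180385653 in that order.
Mir9-3hg: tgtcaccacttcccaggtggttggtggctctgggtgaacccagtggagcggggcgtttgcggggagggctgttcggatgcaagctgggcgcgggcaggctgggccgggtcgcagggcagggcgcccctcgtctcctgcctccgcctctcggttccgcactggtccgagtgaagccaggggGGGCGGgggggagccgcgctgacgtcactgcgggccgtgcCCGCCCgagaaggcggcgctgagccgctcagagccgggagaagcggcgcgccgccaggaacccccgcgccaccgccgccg
Gm3764: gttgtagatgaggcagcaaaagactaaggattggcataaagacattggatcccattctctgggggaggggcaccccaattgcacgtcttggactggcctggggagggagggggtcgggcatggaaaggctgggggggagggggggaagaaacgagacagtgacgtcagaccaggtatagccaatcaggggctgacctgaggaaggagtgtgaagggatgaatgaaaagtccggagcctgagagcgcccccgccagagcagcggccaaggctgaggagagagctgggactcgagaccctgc
C130071C03Rik: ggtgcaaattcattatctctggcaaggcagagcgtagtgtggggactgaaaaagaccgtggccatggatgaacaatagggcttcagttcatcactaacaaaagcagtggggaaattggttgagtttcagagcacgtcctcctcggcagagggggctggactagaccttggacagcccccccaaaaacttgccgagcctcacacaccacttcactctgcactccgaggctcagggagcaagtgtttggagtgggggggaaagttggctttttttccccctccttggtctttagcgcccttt
Mir1a-1hg: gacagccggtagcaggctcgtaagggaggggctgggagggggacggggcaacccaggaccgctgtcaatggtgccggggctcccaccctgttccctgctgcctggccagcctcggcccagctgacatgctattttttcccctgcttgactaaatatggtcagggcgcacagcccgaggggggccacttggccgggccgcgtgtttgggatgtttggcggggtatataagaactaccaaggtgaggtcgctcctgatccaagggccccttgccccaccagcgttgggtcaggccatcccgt

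The summits near miRNA genes lay on both sides, and those a little farther lay mostly upstream. Of 120 marked genes with a known strand, the nearest summit was upstream of 65 (54.2%), within 6 and downstream of 49 (40.8%). A further 67 genes had their nearest summit beyond 1000 and up to 2500 bp away, and of the 63 of these with a known strand 52 (82.5%, interval 71.4 to 90.0) had it upstream. The marked share grew from 10.7% to 16.1% within 2500 bp, 22.2% within 5000 bp and 32.8% within 10000 bp. The median distance from a miRNA gene to the nearest summit was 26364 bp. By class it was 20488 bp in protein-coding hosts, 41084 bp in lncRNA hosts and 71255 bp in neither.

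**Figure D4:**
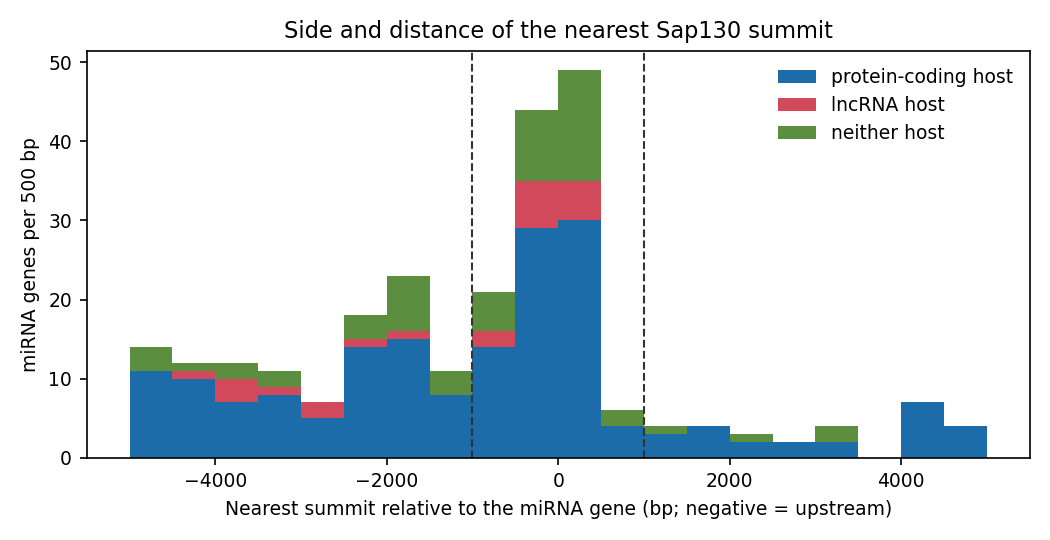
Number of miRNA genes per 500 bp (vertical axis) by the position of the nearest summit (horizontal axis, bp, negative upstream of the miRNA gene in its own direction), for genes with a known strand and a summit within 5000 bp; colours are host classes and dashed lines mark 1000 bp. Beyond the dashed lines the upstream side holds more genes, 52 of the 63 up to 2500 bp. Genes that share a summit each count.

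Of 10 genes of the heart and skeletal muscle list 1 was marked (10%), beside 10.7% of all miRNA genes, and 2 had a summit within 10000 bp, beside 32.8% of all miRNA genes. The marked gene was Mir1a-1 (chromosome 2, 180389048 to 180389124), which makes the muscle miRNA miR-1, with a summit of 5.79 at 206 bp downstream; its host Mir1a-1hg also had a summit of 19.2 within 1000 bp of its start. Mir133a-2, in the same host, was 9049 bp away. Mir208a in Myh6, Mir208b in Myh7 and Mir499 in Myh7b, which lie in genes of myosin heavy chains, were 22277, 39974 and 30282 bp away, and none of these 3 hosts had a summit at a start. Mir1a-2 and Mir133a-1, in Mib1, were 59683 and 57111 bp away, Mir1b was 59648 bp away, and Mir133b and Mir206, of skeletal muscle, were 137291 and 141096 bp away.

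Of 19 miRNA genes of vessels, valves and epicardium 0 were marked, which allows a share of up to 15.8% and so includes the 10.7% of all miRNA genes. Mir126a, the endothelial miRNA in Egfl7, was nearest, at 4520 bp, and its host had a summit of 15.1 at a start. Mir143 and Mir145a, of smooth muscle, were 39304 and 37933 bp away. Mir10a was 35610 bp and Mir10b 20565 bp from a summit, both in Hox gene clusters. Hosts of some others carried higher summits at their starts, 125 in Dnm2, the host of Mir199a-1, and 94.4 in Aopep, the host of Mir23b, Mir27b and Mir24-1.

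Of 15 genes of the Mir17 to Mir92a cluster and its copies, known to promote cell division and heart growth, 0 were marked, which allows a share of up to 20% and so includes the 10.7% of all miRNA genes. Of the 15, 6 had a summit within 2500 bp, beside 16.1% of all. All 6 genes of the first cluster shared one upstream summit of score 144, at 1336 bp from Mir17 (chromosome 14, 115043671 to 115043754), 1516 bp from Mir18 and up to 2092 bp from Mir92-1. The annotated host Mir17hg begins at 115044390, downstream of Mir17, so 5 of these genes counted as in neither host. Mir106b, Mir93 and Mir25, in the replication gene Mcm7, were 4441, 4227 and 4025 bp from a summit, and Mcm7 had a summit of 201 at a start. Mir106a, of the cluster on chromosome X, was 128653 bp away.

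Of 10 genes of the Mir15 and Mir16 family, which restrain the cell cycle, 0 were marked, which allows a share of up to 30% and so includes the 10.7% of all miRNA genes. Of the 10, 7 had a summit within 10000 bp, beside 32.8% of all. The 7 are not independent loci: Mir195a, Mir497 and Mir497b lie together, as do Mir322 and Mir503, and Mir15b and Mir16-2. Mir15b and Mir16-2 lay 4600 and 4730 bp from a summit of score 143 and inside Smc4, of the condensin complex. Mir15a and Mir16-1 lay 16469 and 16607 bp from one. Mir195a was 3046 bp away.

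Of 18 let-7 genes and their cluster partners 2 were marked (11.1%), Mirlet7i and Mir125b-1, beside 10.7% of all miRNA genes, and 6 had a summit within 2500 bp, beside 16.1% of all. The seed of let-7 is carried by 13 genes with a mature entry, and Mirlet7i was the only one of them marked. Mirlet7a-1 was 7274 bp away and Mirlet7b 28165 bp. Mirlet7a-2 was 43227 bp away. Mir99b and Mirlet7e, in Spaca6, just missed at 1074 and 1238 bp from a summit of 11.0.

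Of 41 broadly expressed miRNA genes of growth and stress 7 were marked (17.1%), beside 10.7% of all miRNA genes. Mir34b and Mir34c, targets of p53, shared a summit of 17.6 that lay within Mir34b and 456 bp from Mir34c. Mir130b and Mir301b, in 2610318N02Rik, shared one of 16.9, at 875 and 521 bp. Mir148a had 53.0 at 882 bp, and Mir152, in Copz2, had 21.1 at 284 bp, while Mir148b, in Copz1, was 12073 bp away although its host had 44.3 at a start. Mir210 was the last of the 7. Mir191 and Mir425, in Dalrd3, were 1097 bp from a summit of 90.7 and 1214 bp from one of 154. Mir22 was 1977 bp from a summit of 69.7 at the start of Mir22hg. Mir101a was 9291 bp away, Mir103-1 12597 bp and Mir130a 2378 bp.

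Of 41 miRNA genes of brain, liver, islet, blood, epithelium and early embryo 6 were marked (14.6%), beside 10.7% of all miRNA genes: the 3 Mir9 genes, Mir124a-1, Mir124a-3 and Mir203. Mir141 was 5449 bp from a summit and Mir144 7149 bp. In all 7 lists 16 of 154 genes were marked (10.4%), and 5 names had no match in the annotation. Over all miRNA genes it was 10.7%. The lists are small, and no difference between them was tested.

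**Figure D5:**
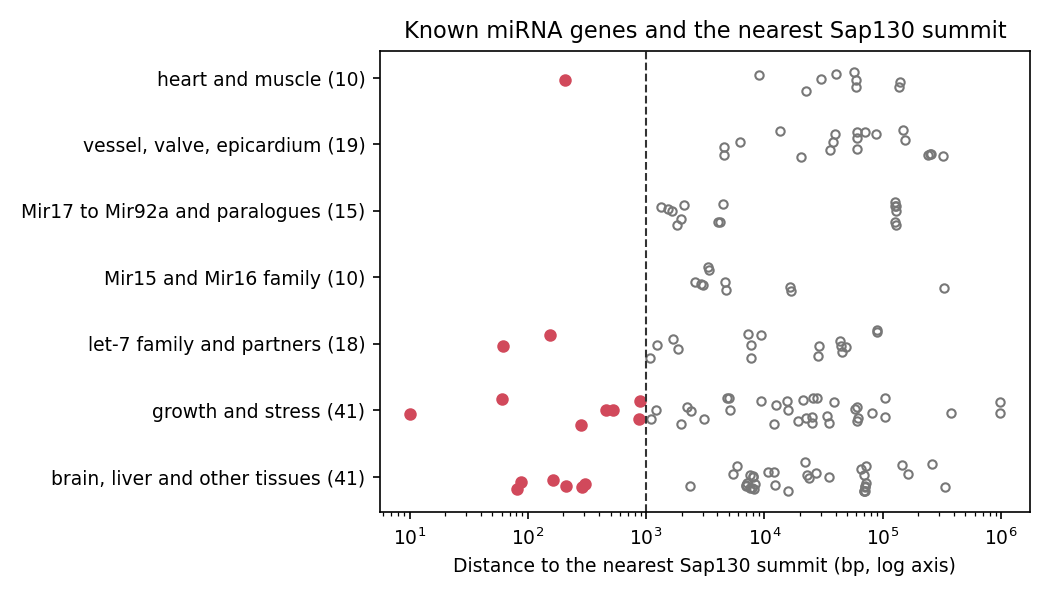
Distance from each listed miRNA gene to the nearest Sap130 summit (horizontal log axis, bp; Mir34b, at 0 bp, is drawn at the left end), by list; filled points are genes within 1000 bp, the dashed line. Of the heart and muscle genes 1 of 10 lies left of the line, and of the vessel, Mir17 and Mir15 lists none.

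Of the 1058 genes with a mature entry 119 were marked, and no expected count by seed was computed. Of 216 seeds shared by 2 or more genes with a mature entry, 38 had a marked gene, 13 had 2 or more and 9 had all of them. Of these 9 seeds 4 come from the same 3 Mir9 hairpins, read on both strands, and are not separate families. The others with all genes marked are miR-132 with miR-212, miR-193a with miR-193b and miR-34b with miR-34c on the 3p strand. Also among them are miR-219a from Mir219a-1 and Mir219a-2, with summits of 95.2 and 14.6, and miR-2861 with miR-3091-3p. Mir132 and Mir212, and Mir34b and Mir34c, each share 1 summit and so count as 1 locus. Mir193a and Mir193b, and the 3 Mir9 genes, lie on different chromosomes and have summits of their own. The seed of miR-34b-5p is also carried by Mir449c, which was marked, and by Mir34a and Mir449a, which were not.

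Large clusters held no mark. Of 145 genes in 5 clusters of 10 or more miRNA genes less than 10000 bp apart 0 were marked, which allows a share of up to 2.07% if each gene is counted on its own, and outside them 131 of 1083 were (12.1%, interval 10.3 to 14.2). Neighbours in a cluster are not independent: counted by cluster, 0 of 5 had a mark, with an upper Wilson limit of 43.4%, and 3 of the 5 lie side by side on chromosome 12. The 72 genes inside Sfmbt2 were at least 312964 bp from a summit, and the 29 that begin with Mir379, on chromosome 12, at least 167774 bp. The 19 on chromosome X were at least 1839783 bp away, the 15 in Rtl1 at least 30704 bp and the 10 in Mirg at least 194333 bp. The Sfmbt2, Mir379, Rtl1 and Mirg genes lie in imprinted regions, and many of the Sfmbt2 ones are near-copies. How reads with several matches were treated is not given in the sources used here. Of 95 clusters of 2 to 9 genes 17 had a marked member, and of 851 single genes 101 were marked.

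Genes with low numbers are mostly those named first and best known. The marked share was 42 of 526 (7.98%, interval 5.96 to 10.6) for numbers under 1000 and let-7, 26 of 178 (14.6%, interval 10.2 to 20.5) from 1000 to under 5000 and 55 of 476 (11.6%, interval 8.99 to 14.7) from 5000 up. These intervals overlap between neighbours. Most genes of the 5 clusters of 10 or more, where 0 of 145 were marked, have numbers under 1000 and count in the lowest range. How far they lower its share was not tested. Without a protein-coding or lncRNA host, the low-numbered genes had 17 of 165 marked (10.3%), and in protein-coding hosts 18 of 282 (6.38%). By chromosome the share ran from 2 of 64 on chromosome 1 and 3 of 92 on X to 11 of 56 on chromosome 8 and 9 of 43 on chromosome 14.

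At the limit of 1000 bp, the marked genes farthest from a summit were Mir6992 at 981 bp, Mir8111 at 956 bp, Mir688 at 949 bp, Mir5619 at 942 bp and Mir193b at 918 bp. The nearest unmarked were Mir1949 at 1037 bp, Mir99b at 1074 bp, Mir1967 at 1075 bp, Mir6973b at 1094 bp and Mir191 at 1097 bp.

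The proteins that make and use miRNAs mostly had summits at their own genes. Of 25 such genes 20 (80%) had a summit within 1000 bp of a boundary, beside 48.4% of protein-coding genes, with a median score of 71.7. Of the nuclear cutting complex, Dgcr8 had 122 and Drosha 85.2, and the RNA helicases Ddx5 and Ddx17 that assist it had 105 and 58.4. Of the export step Xpo5 had 90.0 and Ran 103. Dicer1 had 71.7 and its partner Prkra 55.5. Of the Argonautes, Ago2 had 93.4, Ago4 44.3 and Ago1 26.6, and of their silencing partners Tnrc6b had 66.2 and Tnrc6c 48.2. Tut4 and Tut7, which add uridines to let-7 precursors, had 71.7 and 79.7, Lin28b, which blocks let-7, had 63.6, and Trim71, a let-7 target, had 16.7. Tarbp2, Ago3, Tnrc6a and Dis3l2 had none at a boundary but had one of 34.8, 77.5, 87.4 and 98.1 at another annotated start. Lin28a had none, with the nearest summit 1625 bp away.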

How the data were processed

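Per the labels' protocols, Sap130 ChIP used a Diagenode kit for transcription factors, and both libraries an NEBNext kit. Bowtie 1.1.2, MACS2 2.1.0.20140616 and build GRCm38 (mm10) are named in the submitters' processing notes; for settings, thresholds and the treatment of duplicate or multiply matching reads, the sources used here give nothing. Each of the 14886 deposited summits is 1 base long and has a score, which the authors gave on a −log10 scale from a p-value or a q-value (unknown which). It grows with depth as well as with enrichment. The input library was used by the authors in peak calling and gave no values here. Read depth is unknown.

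Here 14881 nuclear summits were set against RefSeq genes (GRCm38.p6). Of 49997 genes 394 were left out: mitochondrial, unplaced, or (except on Y) with a start below 3 Mb, as scaffolds have. Distances run from the first and last base of a gene. Strand, mature strands and host starts came from RefSeq sequence tables, which held 1072 of the 1228 miRNA genes and 1058 with a mature strand. The named host start is the nearest annotated one, of the nearest host.

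No test was made, because there is 1 ChIP library. Shares carry Wilson 95% intervals. Where a count was 0, the upper limit is 3 counts of the total. It counts each gene on its own, though neighbours in a cluster are not independent. Named genes are the marked members and up to 4 unmarked members of each list, the 15 marked genes of highest score over all, in lncRNA genes and in neither, the 5 on each side of 1000 bp, and summits with 3 miRNA genes; further genes of a named cluster, host or family were added after their values were seen. The members, lists and settings were chosen with earlier results of these data known. The marking was tested on simulated summits at known distances. Python 3.11.15, numpy 2.4.6, pandas 2.3.3, scipy 1.17.1 and matplotlib 3.10.9 were used.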

Additional observations from a re-analysis of the deposited data

Results flagged for a closer look

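The list also held 5 summits on the mitochondrial genome, which lies outside the nuclear chromosomes used here and enters none of the counts above. There are no control samples with summits of their own to set these against.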

How the results depend on the processing

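All values describe 1 ChIP library of unknown depth. No paired analysis was possible because there is 1 ChIP and 1 input library and no test was made. Of 62 values recomputed under other settings, 38 stayed within the main value's 95% interval (for the median score, an interval from its order statistics). With 500 bp in place of 1000 bp, 8.22% of all miRNA genes and 7.64% of those in protein-coding genes were marked. With 2500 bp these were 16.1% and 16.1%, and 16.7% in neither. A wider reach takes in more summits by construction. With only summits at or above the median score, the shares were 4.80% of all genes, 4.73% in protein-coding genes, 1.65% in lncRNA genes and 6.38% in neither. Of the marked genes 74.6% were then at a protein-coding boundary, and the median score was 67.0. With the 3720 summits of highest score the same values were 2.69%, 2.18%, 1.65%, 4.61%, 78.8% and 98.6. Both settings use fewer summits. Without summits near protein-coding boundaries, 4.23% of all genes, 3.52% in protein-coding genes and 3.55% in neither were marked, with a median score of 17.6, while the share in lncRNA genes was 10.7%. With only numbers under 1000 and let-7, 7.98% of all genes and 6.38% in protein-coding genes were marked, with 45.2% at a boundary; the cause was not tested. Merging summits, counting clusters once and taking any overlap with a host kept every value within its interval. So did 3 settings chosen after seeing the data: overlapping miRNA genes counted once (10.4% of all), clusters of 10 or more left out (12.1%) and starts in place of boundaries (54.8% of marked genes).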
